A study of Mus musculus with 12 samples.

Results

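A set of 9 genes of GABA synthesis, transport and the inhibitory synapse, out of 21887 protein-coding genes, was examined for lysine crotonylation (Kcr) on dorsal hippocampus chromatin. They are Gad1, Gad2, Slc32a1, Slc6a11, Abat, Slc12a5, Gphn, Gabbr1 and Gabbr2, and they were picked by name for their role in GABA signalling, not by a measured value. Earlier results of these data were, however, known when the genes were chosen. For each gene, every peak that touched the gene or the 5 kb beyond either end, together called its window, was taken from 2 lists of peaks. The 9 windows span 1300 kb in all. They held 4 of the 16243 learning peaks and 187 of the 332168 homecage peaks.

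Each list came from 1 chromatin immunoprecipitation (ChIP-seq) library of dorsal hippocampus from C57BL/6J mice, made with an antibody raised to recognise crotonylated lysine in any protein (pan-Kcr), histones included. The learning library came from mice trained in spatial object recognition, a task in which mice learn where objects stand. The homecage library came from mice that stayed in their cage. The series has 12 libraries, and the other 10 (inputs and single-nucleus libraries from crotonate- or saline-treated mice) were not analysed here. The labels of the 2 ChIP libraries give no age, no sex and no transgene, and do not say whether animals were pooled. With 1 library per condition no difference between learning and homecage has a replicate check, so no p-value is given and every comparison describes these 2 libraries. The lists hold position and width only. Read depth is unknown, and the homecage list is far longer than the learning list across the whole genome.

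GABA is the main inhibitory transmitter of the brain. Interneurons make it from glutamate, load it into vesicles and release it onto GABA-A receptors, which are chloride channels, and onto GABA-B receptors, which act through G proteins. Neurons and astrocytes then take it up and break it down. Lysine crotonylation is a histone acylation that is known from promoters and enhancers of active genes. The tissue is a mixture in which interneurons are a minority, so a peak cannot be assigned to a cell type, and a mark on fewer cells cannot be told apart from less mark per cell. Of 23 marker genes of hippocampal cell types, 20 had a homecage peak and 7 a learning peak in their windows. By cell type, a learning peak was found at 3 of 5 markers of excitatory neurons, 2 of 5 of astrocytes, 1 of 3 of oligodendrocytes, 1 of 3 of microglia and 0 of 7 of interneurons, against 30.9% of all protein-coding genes. The interneuron markers include Gad1 and Gad2, and the astrocyte markers include Slc6a11, so these counts are not independent of the 9 genes.

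Learning peaks were found at 2 of the 9 genes. Slc12a5, which codes for the potassium-chloride cotransporter that keeps neuronal chloride low, had 1, and Gabbr2, a GABA-B receptor subunit, had 3. Gad1, Gad2, Slc32a1, Slc6a11, Abat, Gphn and Gabbr1 had none. Over all protein-coding genes, 30.9% had a learning peak in the window, so 2 of 9 (22.2%) is close to that background. Long windows hold more peaks. At the mean of all protein-coding genes of the same length class, the 9 genes would hold 8.63 learning peaks and 4.15 of them would have one. The observed 4 peaks have an exact 95% Poisson interval of 1.09 to 10.2, which includes 8.63. This interval and those below treat peaks as independent and cover counting error only.

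All 9 genes had a homecage peak, and 90.5% of all protein-coding genes did. The count ran from 1 at Slc32a1 to 59 at Gabbr2. Together the windows held 14.4 homecage peaks per 100 kb (95% interval 12.4 to 16.6), and the windows of all protein-coding genes held 13.7. The median over the 9 genes was 15.7 peaks per 100 kb, and over all protein-coding genes 13.8. The homecage density of these genes thus lay near that of other genes. Gphn and Gabbr2, the longest of the 9, held 111 of the 187 homecage peaks and 3 of the 4 learning peaks, so the totals mostly describe these 2 genes.

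**Figure D1:**
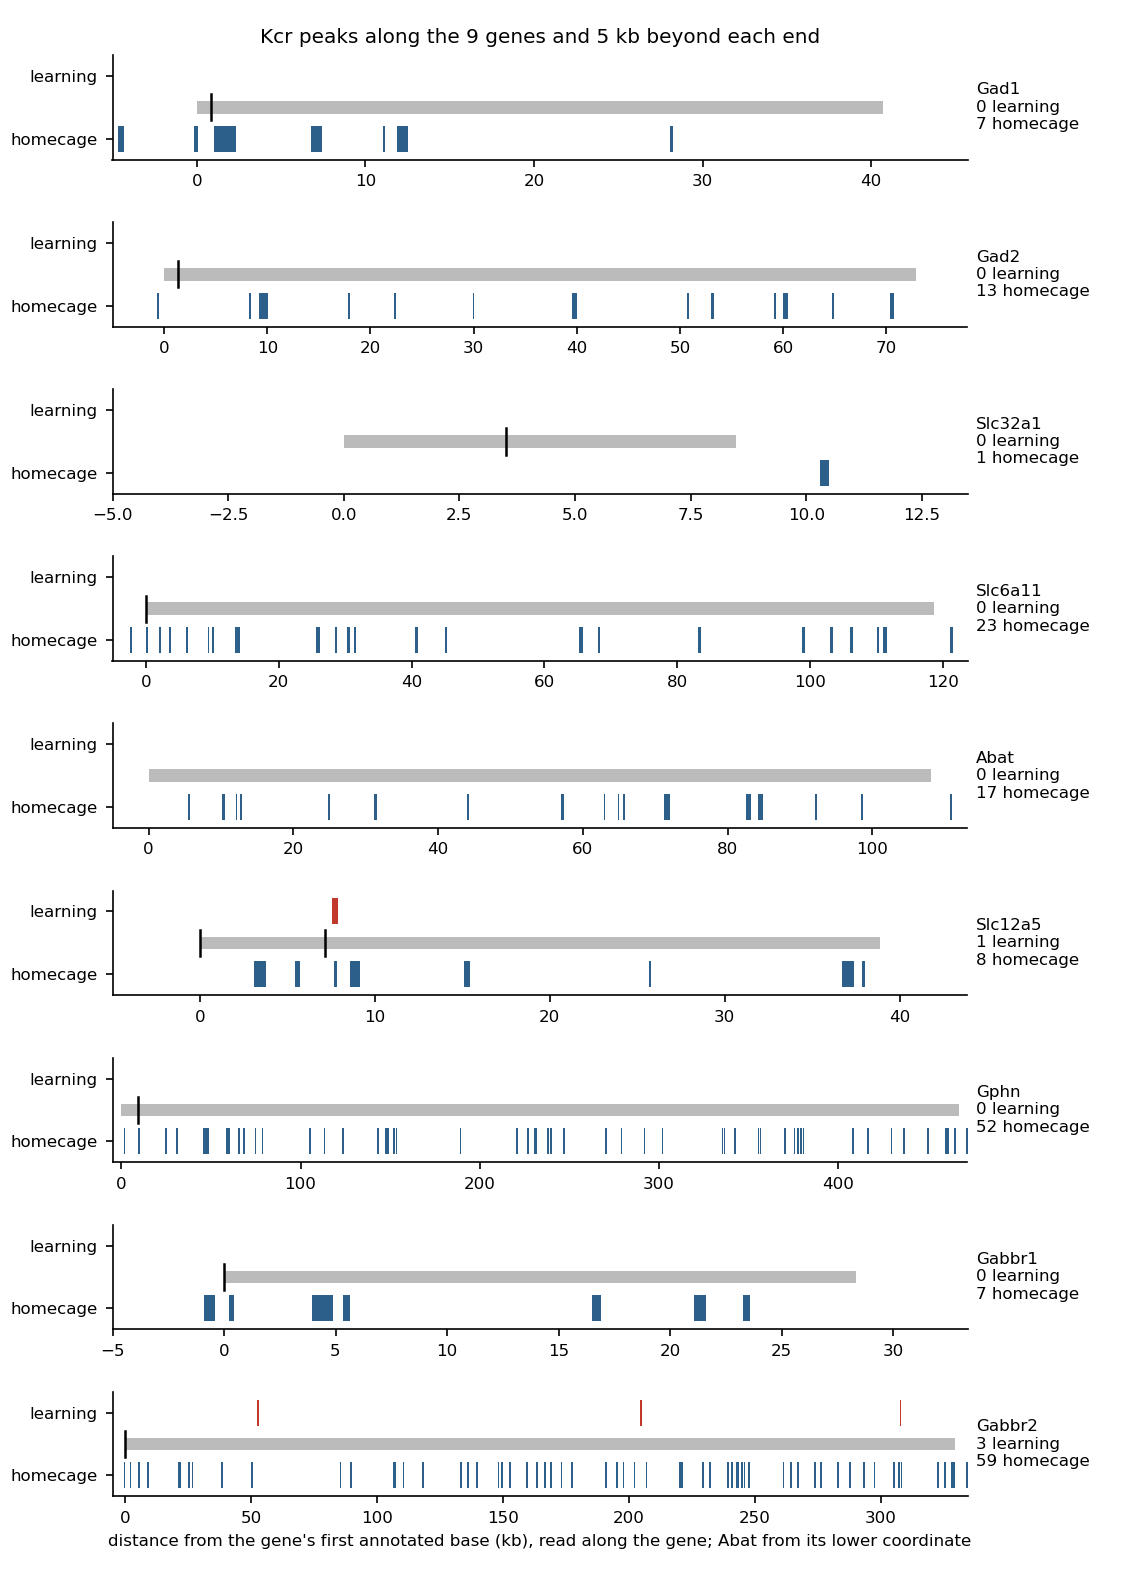
Peaks along each of the 9 genes, with learning peaks in red above and homecage peaks in blue below the gene (grey bar). The x axis is the distance in kb from the gene's first annotated base, short black lines are annotated starts in the promoter table, and peaks are drawn at least 0.2% of the window wide so that they can be seen. Red marks appear at Slc12a5 (1) and Gabbr2 (3) alone, and the homecage marks run from 1 at Slc32a1 to 59 at Gabbr2.

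The enzymes that make GABA come first. Gad1 and Gad2 code for the glutamate decarboxylases that convert glutamate to GABA, and both mark GABA neurons. Gad1 (gene ID 14415, chr2:70561303-70602014, 40.7 kb) had 7 homecage peaks and no learning peak, and the nearest learning peak lay 188 kb from the gene. Of all protein-coding genes, those with a learning peak inside included, 13.5% lay farther from a learning peak. Among genes without a learning peak inside, the median distance was 58.3 kb. The widest homecage peak of Gad1, chr2:70562334-70563651, was 1318 bp wide and began 205 bp after the annotated start. Only 0.988% of homecage peaks were as wide. A second peak of 242 bp, chr2:70561117-70561358, crossed the lower end of the gene, and its last base lay 771 bp before the annotated start. Both peaks, and one farther upstream, also overlapped Gad1os, a long noncoding RNA gene that overlaps the start of Gad1. Of the 5 peaks centred inside Gad1, 4 lay in the opening stretch when the gene was cut into 3 equal stretches, and the last 17.5 kb of the window had no peak. With 5 peaks, and no such count made for other genes, this only describes Gad1.

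Gad2 (gene ID 14417, chr2:22621015-22693877, 72.9 kb) had 13 homecage peaks and no learning peak, with the nearest learning peak 50.4 kb away. Its peaks were narrow, with a median width of 240 bp against 351 bp in the whole homecage list. The widest, chr2:22630178-22631129, measured 952 bp and lay 7851 bp after the annotated start. No peak of either list lay within 1 kb of that start: the nearest homecage peak ended 1796 bp upstream of it, and the next began 6884 bp downstream. At the starts of the promoter table the 2 decarboxylase genes thus differed, with a peak of 1318 bp beside that of Gad1 and none beside that of Gad2. This contrast depends on the start used, because for both genes the start of that table lies inside the gene. The upstream homecage peak, chr2:22620287-22620531, was 245 bp wide and ended 484 bp before the first annotated base of Gad2. The densities of the 2 genes were alike, at 13.8 peaks per 100 kb for Gad1 (95% interval 5.55 to 28.4) and 15.7 for Gad2 (8.35 to 26.8).

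The sequences around the annotated starts of Gad1 and of Slc32a1, the gene of the transporter that fills synaptic vesicles with GABA, are shown because the first has a wide homecage peak beside it and the second has none. Both are RefSeq sequences of GRCm38.p6, plus strand, from 250 bases before to 50 bases after the start, 300 bases each, at chr2:70561879-70562178 and chr2:158610508-158610807. Capitals mark each CG dinucleotide, of which the Gad1 sequence has 21 and the Slc32a1 sequence 17.
Gad1: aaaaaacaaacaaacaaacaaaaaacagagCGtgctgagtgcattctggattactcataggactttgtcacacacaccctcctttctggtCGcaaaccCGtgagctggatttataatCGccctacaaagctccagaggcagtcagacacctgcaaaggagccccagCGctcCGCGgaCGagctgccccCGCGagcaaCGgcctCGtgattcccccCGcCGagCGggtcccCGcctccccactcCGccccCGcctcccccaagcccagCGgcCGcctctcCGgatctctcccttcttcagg
Slc32a1: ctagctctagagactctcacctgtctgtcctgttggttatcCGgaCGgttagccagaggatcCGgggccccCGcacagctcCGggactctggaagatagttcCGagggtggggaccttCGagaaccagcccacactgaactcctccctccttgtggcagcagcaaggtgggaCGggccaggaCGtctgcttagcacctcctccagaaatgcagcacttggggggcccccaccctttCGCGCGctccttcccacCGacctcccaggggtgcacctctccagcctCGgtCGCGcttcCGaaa

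The CG counts of the Gad1 and Slc32a1 sequences are similar, and 33.6% and 42.7% of all annotated starts of protein-coding genes had at least as many. Slc32a1 (gene ID 22348, chr2:158607260-158615747, 8.49 kb) had the fewest peaks of the 9 genes. Its single homecage peak, chr2:158617561-158617754, was 194 bp wide and lay 1814 bp beyond the 3′ end. The Slc32a1 start printed above lies inside the gene, and no peak of either list touched the gene itself. Its window density of 5.41 homecage peaks per 100 kb has a 95% interval of 0.137 to 30.1, so a window of 18.5 kb is too short to set it apart from the 14.3 per 100 kb in the 500 kb on either side. The nearest learning peak lay 26.6 kb from the gene.

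Slc6a11 codes for a GABA transporter that astrocytes use for uptake. The gene (gene ID 243616, chr6:114131241-114249886, 119 kb) had 23 homecage peaks and no learning peak. Their widths ran from 147 to 807 bp with a median of 376 bp, and the widest was chr6:114144599-114145405. A homecage peak of 344 bp, chr6:114131228-114131571, lay over the annotated start itself, from 13 bp before it to 330 bp after it. Of the 8 genes with an annotated start in the promoter table, Slc6a11 was the one with a peak over it. Of the 21 peaks centred in the gene, 11 lay in the opening of the 3 equal stretches, 4 in the middle and 6 in the closing one. The longest stretch of the window without a peak measured 19.9 kb.

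The start of Slc6a11 is printed because it is the one under a peak (RefSeq, GRCm38.p6, plus strand, chr6:114130991-114131290). The homecage peak covers the last 63 of its 300 bases, from base 238 counted from the 5′ end. Capitals mark CG dinucleotides, of which there are 32, a number reached by 12.6% of all annotated starts.
Slc6a11: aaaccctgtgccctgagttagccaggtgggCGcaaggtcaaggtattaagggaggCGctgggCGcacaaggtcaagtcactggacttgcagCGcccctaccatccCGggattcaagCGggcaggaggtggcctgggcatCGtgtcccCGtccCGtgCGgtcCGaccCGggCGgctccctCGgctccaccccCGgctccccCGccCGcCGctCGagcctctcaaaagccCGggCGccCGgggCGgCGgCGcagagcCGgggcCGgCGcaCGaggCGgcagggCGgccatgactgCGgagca

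Abat codes for the GABA transaminase, the mitochondrial enzyme that breaks GABA down. The gene (gene ID 268860, chr16:8513429-8621568, 108 kb) had 17 homecage peaks and no learning peak. Its nearest learning peak lay 209 kb away, the largest such distance among the 9 genes. Of all protein-coding genes, those with a learning peak inside included, 12.2% lay farther. The median homecage width was 263 bp, and the widest peak, chr16:8584604-8585489, was 886 bp wide and inside the gene. No peak lay across either end of Abat: the first inside the gene, at its lower coordinates, was chr16:8518808-8519070. Strand and start were not taken for Abat, so its peaks are not placed relative to transcription.

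Slc12a5 (gene ID 57138, chr2:164960846-164999731, 38.9 kb) had 8 homecage peaks and 1 learning peak, and all 9 lay inside the gene. The learning peak, chr2:164968404-164968756, was 353 bp wide, against a median of 306 bp in the learning list. It enclosed a homecage peak of 207 bp, chr2:164968492-164968698, from end to end. This was the one learning peak of the 4 that overlapped a homecage peak. Slc12a5 has 2 annotated starts in the promoter table, and the shared site lay beside the downstream one: the learning peak ran from 416 to 768 bp after that start and the homecage peak from 504 to 710 bp after it. The upstream start had no peak of either list within 1 kb, and the nearest, of 714 bp (chr2:164963924-164964637, the widest homecage peak of the gene), began 3078 bp after it. Other homecage peaks lay on either side of the shared site, 1809 bp and 653 bp away from the learning peak. The next learning peaks outside the gene lay 21.8 kb and 34.3 kb from its ends.

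Both starts of Slc12a5 are printed because a peak in each list lay beside one and not beside the other (RefSeq, GRCm38.p6, plus strand, chr2:164960596-164960895 for the upstream start 1 and chr2:164967738-164968037 for the downstream start 2). Capitals mark CG dinucleotides. Each sequence has 21, and the GC content is 63.7% for start 1 and 68.3% for start 2, so these counts do not separate the starts.
Slc12a5 start 1: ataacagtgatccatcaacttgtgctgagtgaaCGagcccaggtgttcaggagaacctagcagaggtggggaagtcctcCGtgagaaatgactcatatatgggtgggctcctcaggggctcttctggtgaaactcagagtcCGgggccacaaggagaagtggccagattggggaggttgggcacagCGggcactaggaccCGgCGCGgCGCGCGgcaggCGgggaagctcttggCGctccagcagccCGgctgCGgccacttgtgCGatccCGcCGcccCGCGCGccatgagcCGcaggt
Slc12a5 start 2: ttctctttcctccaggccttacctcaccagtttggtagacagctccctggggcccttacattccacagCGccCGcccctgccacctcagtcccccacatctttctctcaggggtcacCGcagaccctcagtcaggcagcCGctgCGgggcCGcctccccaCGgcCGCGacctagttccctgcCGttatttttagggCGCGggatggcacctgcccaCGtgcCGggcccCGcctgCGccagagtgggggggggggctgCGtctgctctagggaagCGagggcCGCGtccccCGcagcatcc

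Across 21263 annotated starts of protein-coding genes, peaks of both lists were most frequent just downstream of the start. The highest upstream values, 100 bp before the start, were 3.03% for learning and 12.6% for homecage. At 300 bp after the start, 7.87% of starts were under a learning peak and 23.0% under a homecage peak. At the start itself the values were 3.39% and 13.5%, and 3000 bp upstream they were 0.339% and 5.39%. Within 1 kb of the start, 16.1% had a learning peak and 50.6% a homecage peak. Of the 9 annotated starts of 8 of the genes, 1 had a learning peak within 1 kb, the downstream start of Slc12a5, and 6 had a homecage peak. Gad1, Slc6a11, Slc12a5 at its downstream start, Gphn and Gabbr1 had a homecage peak on the downstream side, where the peaks of all genes were most frequent. Upstream of the start, Gabbr2 had one within 1 kb, and so did Gad1 and Gabbr1 in addition to their downstream peaks. These counts of 1 and 6 of 9 are near the backgrounds of 16.1% and 50.6%.

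**Figure D2:**
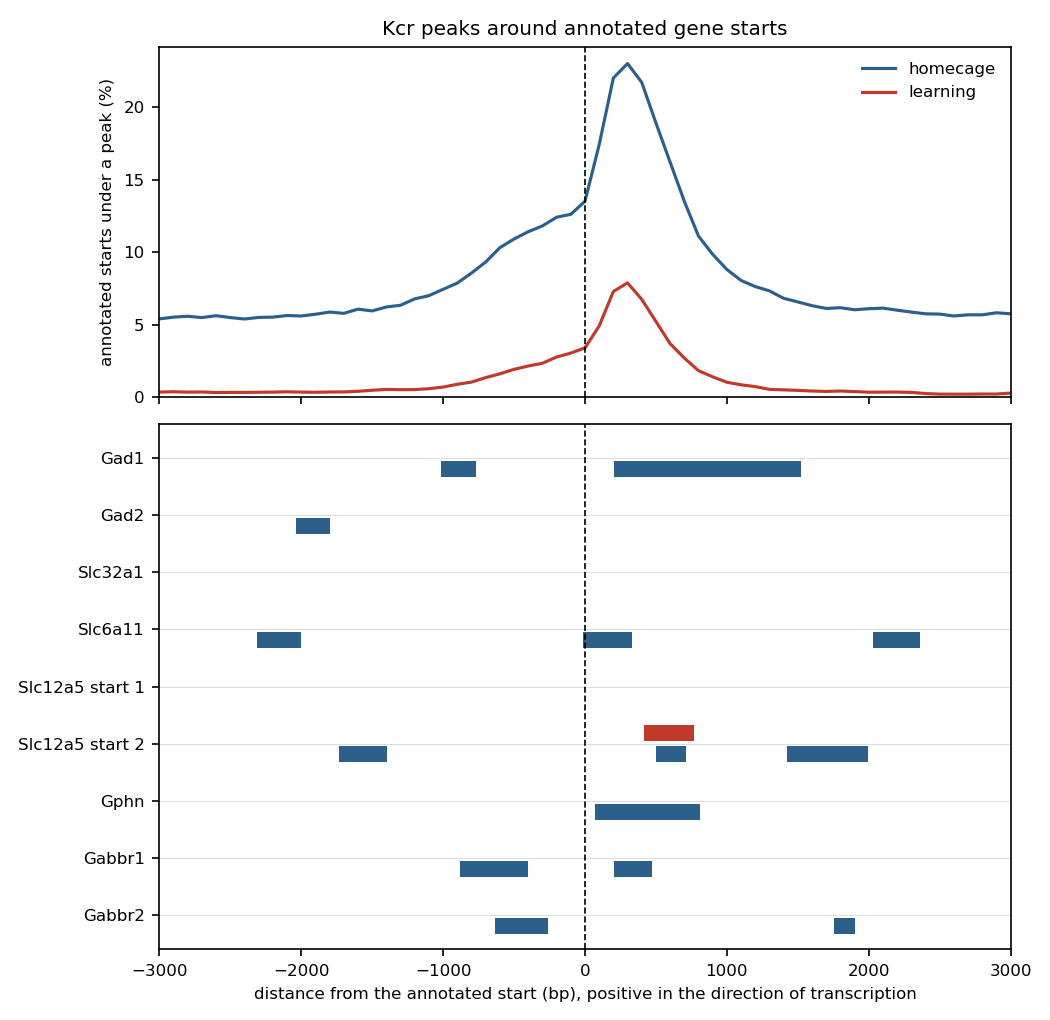
Peaks around annotated starts, in bp from the start and read in the direction of transcription. The upper plot gives the percentage of 21263 starts of protein-coding genes that lie under a homecage (blue) or learning (red) peak at each distance, highest at 300 bp with 23.0% and 7.87%, and the lower plot shows the peaks near the 9 starts of the GABA genes, where the single red bar is the learning peak at start 2 of Slc12a5.

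Starts rich in CG carried peaks more often. Over all protein-coding genes, a homecage peak lay within 1 kb of 34.0% of starts with fewer than 10 CG in the 300 bases, 58.6% of starts with 10 to 29 and 75.9% of starts with 30 or more. The corresponding learning values were 4.44%, 20.5% and 37.3%. Among the GABA genes, the 3 starts with 30 or more CG (Slc6a11 with 32, Gphn with 42, Gabbr2 with 46) all had a homecage peak within 1 kb and no learning peak. Of the 6 starts with 10 to 29 CG, 3 had one. The start of Gphn (RefSeq, GRCm38.p6, plus strand, chr12:78226405-78226704) is printed as the sequence that a homecage peak follows most closely, with its first base 71 bp after the start. Capitals mark CG dinucleotides.
Gphn: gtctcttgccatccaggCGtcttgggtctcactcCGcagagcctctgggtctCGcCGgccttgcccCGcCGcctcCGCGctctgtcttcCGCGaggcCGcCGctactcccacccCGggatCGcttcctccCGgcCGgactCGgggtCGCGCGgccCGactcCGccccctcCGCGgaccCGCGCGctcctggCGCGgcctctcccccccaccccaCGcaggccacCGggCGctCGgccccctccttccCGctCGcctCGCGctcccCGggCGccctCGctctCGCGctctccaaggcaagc

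Gphn codes for gephyrin, the scaffold that anchors GABA-A and glycine receptors under the inhibitory synapse. It is the longest of the 9 genes (gene ID 268566, chr12:78217325-78684772, 467 kb) and had 52 homecage peaks and no learning peak. In its length class, protein-coding genes with windows over 200 kb, 75.8% had a learning peak and the mean was 2.22 peaks per gene. The nearest learning peaks lay 334 kb below and 64.3 kb above the gene, so that 866 kb around Gphn were free of them. The peak after the annotated start, chr12:78226726-78227468, was 743 bp wide. This start lies inside the gene, and that peak began 9401 bp after the gene's first annotated base. A wider homecage peak of 866 bp, chr12:78218565-78219430, began 1240 bp after that first base. The widest, chr12:78487196-78488427, was 1232 bp wide and lay 57.9% of the way along the gene. Gphn held 10.9 homecage peaks per 100 kb (95% interval 8.13 to 14.3), which was above only 16.7% of the genes in its class. The 500 kb on either side held 14.0 per 100 kb, and the ratio of the 2 densities was 0.778 (95% interval 0.555 to 1.08), which includes 1. Its longest stretch without a peak measured 35.6 kb.

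Gabbr1 and Gabbr2 code for the subunits that pair to form the GABA-B receptor. Gabbr1 binds the transmitter and Gabbr2 couples to the G protein. Gabbr1 (gene ID 54393, chr17:37045966-37074305, 28.3 kb) had 7 homecage peaks and no learning peak, and the nearest learning peak lay 49.1 kb away. A pair of homecage peaks flanked its annotated start. The upstream one, chr17:37045087-37045565, was 479 bp wide and ended 401 bp before the start, and the downstream one, chr17:37046169-37046435, was 267 bp wide and began 203 bp after it. The widest, chr17:37049893-37050854, was 962 bp wide and began 3927 bp after the start. Gabbr1 had the highest density of the 9 genes, 18.3 homecage peaks per 100 kb, and peaks covered 8.57% of its window. The 95% interval of this density, 7.34 to 37.6, includes the 12.5 per 100 kb of the surrounding 500 kb on either side.

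Gabbr2 (gene ID 242425, chr4:46662318-46991714, 329 kb, minus strand) had 59 homecage and 3 learning peaks. The 3 learning peaks were spread through the gene and none lay within 1 kb of its start. The first in the direction of transcription, chr4:46939105-46939413, was 309 bp wide and began 52301 bp after the start. It lay inside the longest stretch of the window without a homecage peak, which measured 34.5 kb, and the nearest homecage peak was 1569 bp away. The next, chr4:46787209-46787379, was 171 bp wide, with homecage peaks 2084 bp and 2133 bp away. The last, chr4:46684111-46684256, was 146 bp wide, the smallest width in the learning list. It lay between homecage peaks of 250 bp and 157 bp, which were 201 bp and 413 bp away. None of the 3 overlapped a homecage peak, and all sat inside the gene, 15.9%, 62.1% and 93.4% of the way along it. A further learning peak of 146 bp, chr4:46655039-46655184, lay 7134 bp beyond the gene and outside the window.

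The homecage peaks of Gabbr2 included the widest of the 9 genes. It was 1858 bp wide, chr4:46770177-46772034, inside the gene, and 0.215% of homecage peaks were as wide. The next widest, 1520 bp, chr4:46662365-46663884, lay 47 bp inside the 3′ end of the gene. Neither overlapped a learning peak: the nearest learning peaks were 15175 bp and 7181 bp away. At the start, a homecage peak of 372 bp, chr4:46991976-46992347, lay 262 bp upstream. Gabbr2 held 17.4 homecage peaks per 100 kb (95% interval 13.2 to 22.4), above 90.5% of the genes with windows over 200 kb. The 500 kb on either side held 9.80 per 100 kb. The ratio was 1.77 (95% interval 1.26 to 2.47), and it was the one ratio of the 9 whose interval did not include 1. The intervals are not adjusted for the 9 ratios. Of its peaks, 4 lay also in the noncoding gene Gm32208 and 2 in Gm32135, both within Gabbr2.

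**Figure D3:**
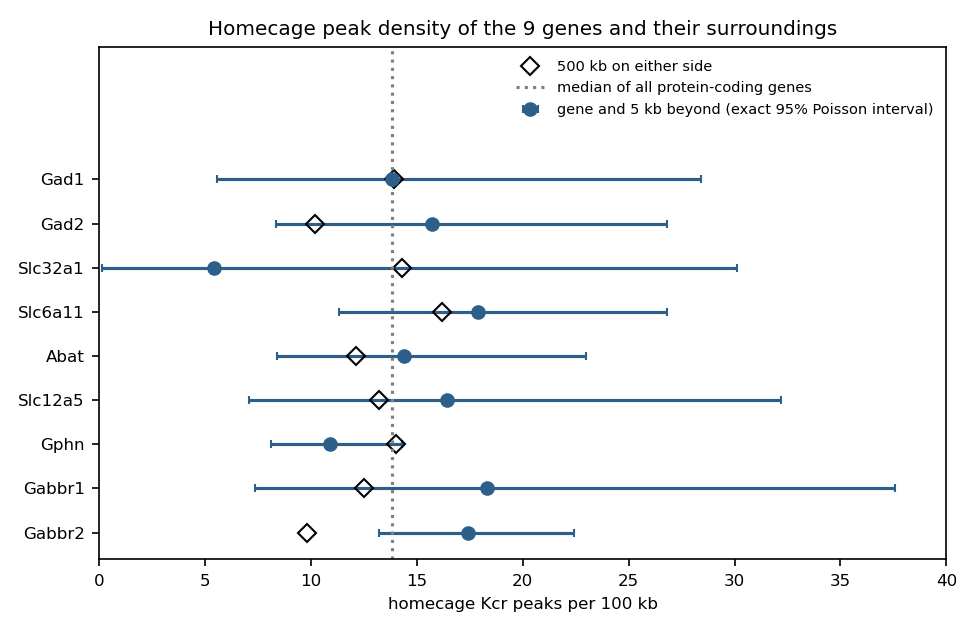
Homecage peaks per 100 kb in the window of each gene (blue points with exact 95% Poisson intervals, which cover counting error only) and in the 500 kb on either side (open diamonds). The dotted line is the median of all protein-coding genes, 13.8; the diamond of Gabbr2, 9.80, is the one that lies outside the interval of its window.

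Across the 9 genes, the ratio of the window to its surroundings ran from 0.378 at Slc32a1 to 1.77 at Gabbr2. It was above 1 at 6 genes (Gad2, Slc6a11, Abat, Slc12a5, Gabbr1 and Gabbr2). This ratio was not computed for other genes, so the share of all genes above 1 is not known. The order of the densities, from Gabbr1 with 18.3 and Slc6a11 with 17.9 down to Gphn with 10.9 and Slc32a1 with 5.41 peaks per 100 kb, is mostly not resolved. The intervals of neighbours in this order overlap. Gabbr2 and Gphn, the 2 genes with the most peaks, overlap narrowly, with 13.2 as the lower bound of Gabbr2 and 14.3 as the upper bound of Gphn. Learning peaks in the 500 kb on either side numbered from 4 at Gad2, Abat and Gabbr1 to 12 at Slc12a5 and Gabbr2, the 2 genes that had learning peaks themselves. Slc6a11, with none, had 11.

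The 187 homecage peaks were of ordinary width. Their median was 341 bp against 351 bp in the whole list, and 4 of them (2.14%) were at least 1000 bp wide against 3.04% of the list. These 4 lay at Gad1 (1318 bp), Gphn (1232 bp) and Gabbr2 (1520 and 1858 bp). The 4 learning peaks measured 353, 309, 171 and 146 bp, with a median of 240 bp against 306 bp in the list. Of the 187 homecage peaks, 177 touched the gene itself and 10 lay only in the 5 kb beyond. Along the 8 genes of known strand, 160 homecage peaks were centred inside, 60 in the opening of 3 equal stretches, 40 in the middle and 60 in the closing one. Gabbr2 went from 13 to 19 to 25, and Slc6a11 and Gphn had the most in the opening stretch (11 and 21). Counts by stretch were not made for other genes, so they only describe these 8.

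**Figure D4:**
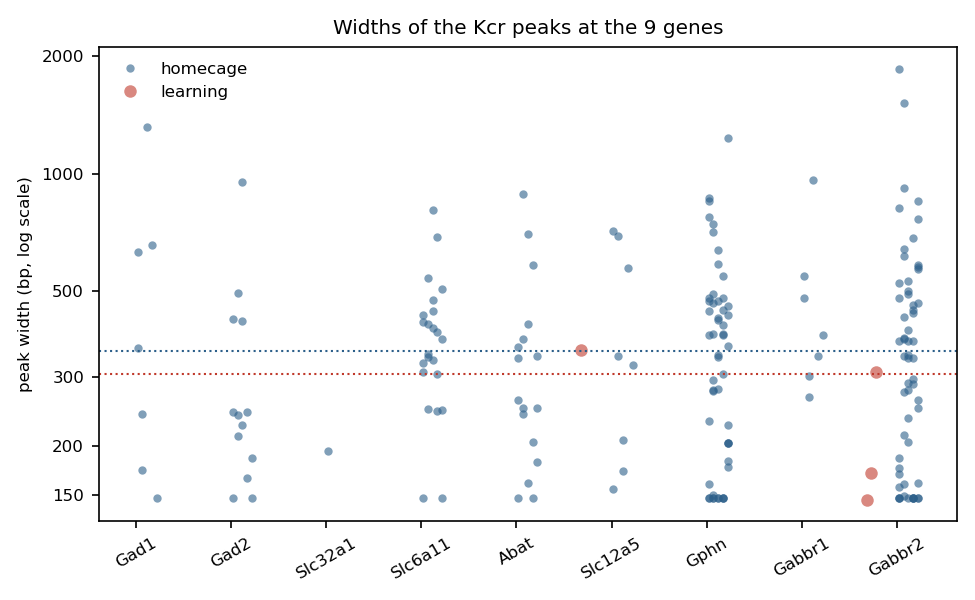
Width in bp (log scale) of each homecage (blue) and learning (red) peak at the 9 genes. Dotted lines are the medians of the whole lists, 351 bp for homecage and 306 bp for learning; the widest points are the 1858 bp and 1520 bp homecage peaks of Gabbr2, and the red points lie between 146 and 353 bp.

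The learning and homecage peaks of these genes overlapped at 1 site. Of the 4 learning peaks, 1 (25%, exact 95% interval 0.631 to 80.6%) overlapped a homecage peak, and 1 of the 187 homecage peaks did so with a learning peak (0.535%, interval 0.0135 to 2.94%). In the whole homecage list, which is far longer than the learning list, the share was 2.05%, a value inside that interval. Of all learning peaks in windows of protein-coding genes, 48.1% overlapped a homecage peak, a value inside the interval of the 4 learning peaks, 0.631 to 80.6%. Among such learning peaks without an overlap, the median distance to the nearest homecage peak was 1400 bp, and the 3 peaks of Gabbr2 had 201, 1569 and 2084 bp.

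Other genes of the pathway were counted in the same way, and are read against the 30.9% of all protein-coding genes with a learning peak in the window and against the share in genes of the same length class. Of 18 further genes of GABA handling and the inhibitory synapse, 6 had a learning peak in the window (33.3%, with 6.22 genes at the share of their length classes) and all 18 had a homecage peak. The genes with a learning peak included Aldh5a1, the enzyme after the transaminase in GABA breakdown, Nlgn2, the adhesion protein of inhibitory synapses, Insyn1, a protein of the inhibitory postsynapse, Shisa7, an auxiliary protein of GABA-A receptors, and Kctd8, an auxiliary subunit of GABA-B receptors. Of 19 GABA-A receptor subunit genes, 6 had a learning peak (31.6%, with 8.88 at the class share) and 16 a homecage peak (84.2%). Those with a learning peak included Gabra4, Gabra5, Gabrb1, Gabrr2 and Gabrr3. On the glutamate side, 5 of 13 transport and metabolism genes had a learning peak (38.5%, with 4.45 at the class share), among them Glud1, Glul, Slc17a8 and Slc1a6. Among 15 postsynaptic density scaffold genes 12 had one (80.0%, with 7.82 at the class share), among them Dlg1, Dlg2, Dlg4, Dlgap1, Homer2 and Shank1. The scaffold count was above both backgrounds, but this list was chosen with earlier results of these data known. The class share is also not taken at equal length, because the longest class has no upper limit and the window of Dlg2 spans 1980 kb. Per 100 kb of window, however, the scaffold genes held 0.613 learning peaks against 0.854 in all protein-coding windows. Window length differed between the lists, with a median window of 111 kb for the scaffold genes against 82.9 kb for the 9 GABA genes, 57.2 kb for glutamate transport and 27.2 kb for all protein-coding genes.

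Per 100 kb of window, the 9 GABA genes held 0.307 learning peaks, the GABA-A subunits 0.312, the further GABA genes 0.527, the scaffold genes 0.613 and the glutamate transport genes 0.901. All protein-coding windows held 0.854. The 95% interval of the 9 genes, 0.0836 to 0.786, includes the values of both other GABA lists and of the scaffold genes, and ends below those of the glutamate transport genes and of all protein-coding windows. Many protein-coding windows are short and hold a gene start in a larger share of their length, so this density is not compared at equal length. At the means of their length classes, the 9 genes would hold 8.63 learning peaks (4 observed), the further GABA genes 11.3 (7 observed), the GABA-A subunits 19.1 (9 observed), the glutamate transport genes 6.67 (7 observed) and the scaffold genes 17.6 (31 observed). The 3 GABA lists thus held fewer learning peaks than these means, and the scaffold genes more. The homecage counts at the same means were 176 for the 9 genes (187 observed), 206 for the further GABA genes (158 observed), 401 for the GABA-A subunits (329 observed), 96.4 for glutamate transport (106 observed) and 379 for the scaffold genes (697 observed). The longest class has no upper limit and the scaffold window of Dlg2 alone spans 1980 kb, so such a gene is set against the mean of a class that holds much shorter windows.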

How the data were processed

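Peaks were called on each ChIP library separately, and the deposited lists give 4 columns (chromosome, start, end, name) with no strength, count or p-value. The submitters' processing notes name Trimmomatic, BWA, MACS2 and the mouse build mm10, without versions or roles. Per the peak names, broad peaks were taken at p 0.01 by the authors, and whether an input served as control is not given in the sources used here. A lenient threshold gives many weak peaks, and a list's length depends on depth, which is unknown.

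Gene positions came from a RefSeq table of GRCm38.p6 (same coordinates as mm10), and all 9 symbols matched. Strands, starts and sequences came from a RefSeq promoter table, which was matched for 8 of the 9. Positions are 1-based, and only chromosomes 1 to 19, X and Y were used. Peaks shared a site if they overlapped by at least 1 bp. Windows reached 5 kb beyond each gene. Length classes were windows up to 50, 100 and 200 kb and above. Intervals are exact (Poisson for counts, Clopper-Pearson for shares, and the conditional binomial interval for a ratio of 2 counts).

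All 9 genes are named, with every learning peak, every homecage peak that overlaps one, the widest homecage peak of each gene and those over a gene end. Some genes of the comparison lists are not reported by name here. The peaks nearest the annotated starts were added once the promoter table was at hand. The members and lists were chosen with earlier results of these data known. No test was run. Counting functions were checked on simulated intervals against a direct search (0 wrong of 4000 queries). Software versions were matplotlib 3.10.9, scipy 1.17.1, pandas 2.3.3, numpy 2.4.6 and Python 3.11.15. Alternatives tried were other flanks, stricter overlap, peak centres, a 500 bp minimum width, merged peaks, a shortened homecage list and omission of the longest genes.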

Additional observations from a re-analysis of the deposited data

How the results depend on the processing

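No paired analysis was possible because learning and homecage were represented by 1 ChIP library each, which also leaves no replicate to omit. Of 44 recomputed values, 32 stayed within 1.5 times the reported value and 12 moved beyond it. Gene bodies alone, flanks of 10 kb and peak centres moved none of them. A minimum width of 500 bp moved the most: no learning peak was left (0 peaks, 0 genes, 0 shared, 0 per 100 kb), and 40 homecage peaks remained, or 3.07 per 100 kb. All 4 learning peaks were thus under 500 bp. Merging peaks closer than 1 kb made 2 learning peaks shared, since the homecage peaks around the Gabbr2 peak of 146 bp joined across it. In the 16002 widest homecage peaks (884 bp or more), 8 homecage peaks were left at the 9 genes, 0.614 per 100 kb, and 0 learning peaks were shared. Without Gphn and Gabbr2, an alternative chosen after seeing the data, 1 learning and 76 homecage peaks remained. The homecage density was then 15.6 per 100 kb.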
